A study of Homo sapiens with 12 samples.

Results

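The comparison described here sets U-2932 cells that stably express Roquin2 with the Y691F substitution against U-2932 cells that stably express wild-type (WT) Roquin2, both left untreated. U-2932 is an established human line of diffuse large B cell lymphoma. The members are the 3 untreated Y691F libraries and the 3 untreated WT libraries, taken from the column names of the deposited count table, which make 6 of the 12 libraries of the series. The other 6 libraries are the same lines after 12 h of F(ab')2-IgM exposure (10 µg/ml), which crosslinks the B cell receptor, and they enter through the choice of genes tested, the spread estimate of the fit and the values with IgM given beside some results. Each group held 3 replicates that the submitters call independent and biological. All 4 groups share the cell line, its own copy of the Roquin2 gene, and a stably introduced Roquin2 form. Whether a Roquin2 form was carried by 1 clone or by a pool of cells, and what promoter drove it, is information not given in the sources used here. A difference between the Roquin2 forms and any other difference between the lines cannot be told apart.

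Roquin2, the product of RC3H2, and its paralog Roquin1, the product of RC3H1, bind stem-loop structures in mRNAs and recruit enzymes that shorten the poly(A) tail, so that the bound mRNA decays. The endonuclease Regnase-1 (ZC3H12A) cuts a partly shared set of mRNAs of inflammatory and lymphocyte genes. In B cells such mRNAs include those of regulators of NF-kB and of costimulation. In the Y691F form a tyrosine is replaced by phenylalanine, which has no hydroxyl group for a tyrosine kinase to modify. The comparison of untreated cells asks which mRNAs differed between the lines before the receptor was engaged.

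PolyA+ RNA was sequenced with strand marking, and 15112 of the 60675 genes in the table had enough counts to be tested. The 6 libraries held between 16496168 and 21478790 counts, and the biological coefficient of variation was 2.51%. Levels are CPM, counts scaled to a common library total by the TMM method, given for libraries 1, 2 and 3 in turn or as mean ± SD with n = 3. Differences are log2 of Y691F over WT from edgeR's quasi-likelihood test with their standard error (SE). A gene was called at a Benjamini-Hochberg adjusted p under 0.05 over all 15112 genes. All 12 markers that define B cells were detected, CD79A among them at 757 ± 17.6 CPM in the WT and 798 ± 31.2 CPM in the Y691F libraries. Of 20 T and NK cell markers, 13 had at most 20 reads over the 6 libraries, CD3D, CD2 and NKG7 had 0, and the summed level of the list ran from 17.4 to 17.8 CPM in WT and from 38.0 to 40.9 CPM in Y691F. Of that list TRBC2 (log2 1.85, adjusted p = 1.50e-35), TRBC1, NCAM1 and CD8A were higher and TRAC was lower in Y691F, and the part of these markers in the results was not tested. The 15 myeloid markers summed to at most 2.07 CPM in any of the 6 libraries. Of 17 fibroblast, epithelial and endothelial markers, 12 had at most 20 reads over the 6 libraries, and the list summed to 25.6 to 26.7 CPM in WT and 23.1 to 26.98 CPM in Y691F. Most of that sum was EPCAM, at 21.3 ± 0.494 CPM in the WT and 20.4 ± 1.72 CPM in the Y691F libraries (log2 -0.07, adjusted p = 0.473), and PECAM1 was the 1 member called (1.26 ± 0.124 CPM in the WT and 2.32 ± 0.201 CPM in the Y691F libraries, log2 0.88, adjusted p = 7.06e-04).

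Between the untreated lines, 4716 genes were called, 31.2% of those tested. Of these, 2279 (15.1%) were higher and 2437 (16.1%) lower in Y691F. Most differences were small: the median size of a called difference was 0.26 on the log2 scale, and 3768 of the 4716 genes differed by less than 1.5-fold. At least 2-fold differences were called for 287 genes that were higher (1.90%) and 129 that were lower (0.854%). At least 8-fold differences were called for 16 higher and 13 lower genes. The median over all tested genes was -0.0078. The 3 Y691F libraries all lay above the 3 WT libraries in 2963 genes (19.6%), and all below them in 3088 (20.4%). Of the 2279 genes called higher, 2128 had separated libraries, as had 2241 of the 2437 called lower. Separation therefore adds little to a call. For list genes named below by a small adjusted p, it largely follows from that choice. In the lowest quartile of tested genes by level, 14.2% were called and 7.65% were called with a 2-fold difference. In the highest quartile, 51.8% were called and 0.318% had a 2-fold difference. A call is common in these data, and more so among abundant genes. The counts of the gene lists below are therefore given by direction, and for many lists with the median of the members. They are to be read beside the 15.1% higher and 16.1% lower over all tested genes, and beside the larger share called at high levels. Lists counted without a median had medians from -0.068 (brakes of the receptor) to 0.15 (axon guidance and matrix). The plot of difference against level shows both the many small calls at high levels and the few large ones at low levels.

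**Figure D1:**
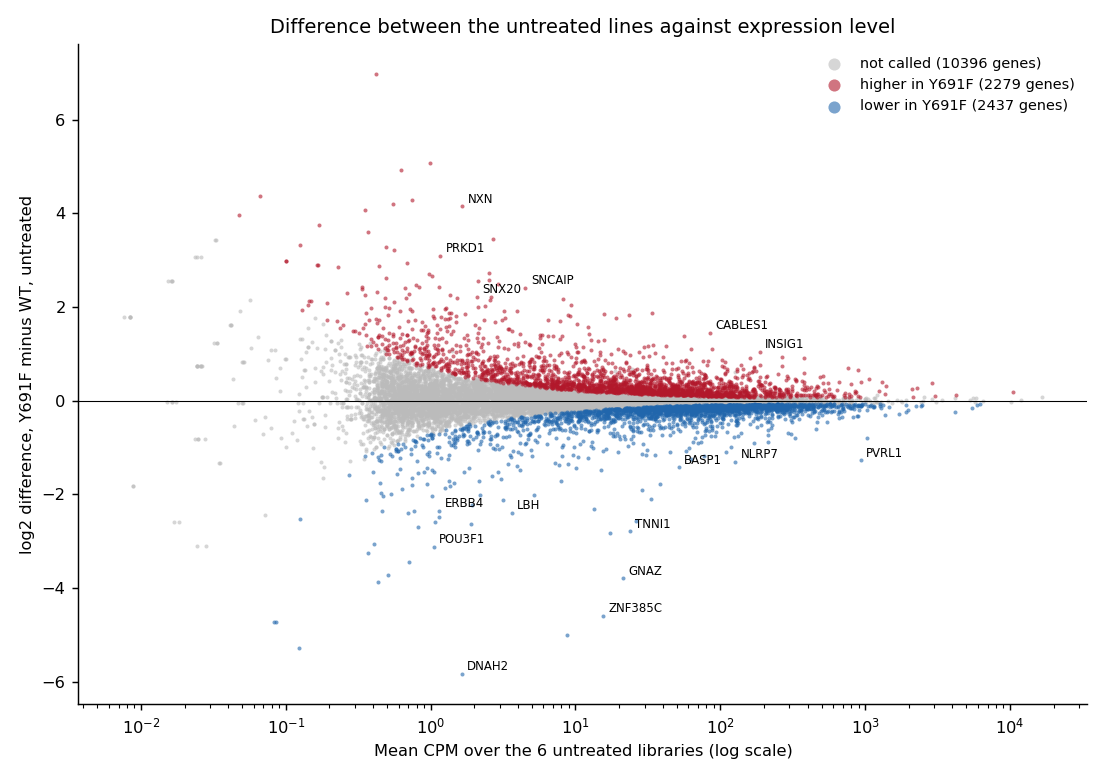
Each point is 1 tested gene, placed by its mean CPM over the 6 untreated libraries (horizontal log axis) and its log2 difference, Y691F minus WT (vertical axis). Red points are the 2279 genes called higher, blue points the 2437 called lower and grey points the genes not called, and names mark some of the genes with the largest differences, from NXN at 4.15 to DNAH2 at -5.84.

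The mRNAs of the Roquin and Regnase family moved in opposite directions: both Roquin genes were higher in Y691F and 2 of the 4 tested Regnase genes were lower. RC3H2 (ENSG00000056586, chromosome 9, 122844556 to 122905341, minus strand, GRCh38) stood at 109, 111 and 111 CPM in WT and 209, 209 and 208 CPM in Y691F (log2 0.92, SE 0.032, adjusted p = 2.50e-41). The 3 libraries of each line were within a few CPM of each other, and the lines did not overlap. The table does not part reads of the construct from those of the RC3H2 gene of the cells, so these levels may join the cells' own mRNA and that of the construct. RC3H1 (ENSG00000135870, chromosome 1, 173931214 to 174022297, minus strand) stood at 33.5, 33.6 and 32.4 CPM in WT and 50.3, 42.2 and 46.4 CPM in Y691F (log2 0.48, SE 0.055, adjusted p = 3.06e-11). Its Y691F libraries were spread more widely than its WT libraries, but all 3 lay higher. On the length-scaled RPKM values deposited by the authors, RC3H2 stood at 8.16 ± 0.146 in WT and 15.4 ± 0.240 in Y691F, and RC3H1 at 2.46 ± 0.0428 and 3.43 ± 0.323 (SD, n = 3). The mRNA of Roquin2 was thus the more abundant of the pair in both lines on that scale.

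ZC3H12A, the gene of Regnase-1, stood at 85.2, 82.8 and 84.7 CPM in WT and 45.5, 46.2 and 45.8 CPM in Y691F (log2 -0.88, SE 0.041, adjusted p = 2.15e-32). ZC3H12D, whose product is also called TFL or Regnase-4, stood at 45.7, 45.04 and 48.6 CPM in WT and 31.7, 32.5 and 29.9 CPM in Y691F (log2 -0.56, SE 0.058, adjusted p = 1.56e-13). Both were lower in every Y691F library than in any WT library. ZC3H12C, the gene of Regnase-3, went the other way, with 12.9, 12.6 and 12.1 CPM in WT and 19.9, 19.3 and 19.1 CPM in Y691F (log2 0.63, SE 0.069, adjusted p = 8.54e-13), again without overlap. ZC3H12B, near 1 CPM, was not called (log2 0.37, adjusted p = 0.2503). The family counted 3 higher and 2 lower of 6 tested, with a median log2 difference of 0.43 against -0.0078 over all genes.

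**Figure D2:**
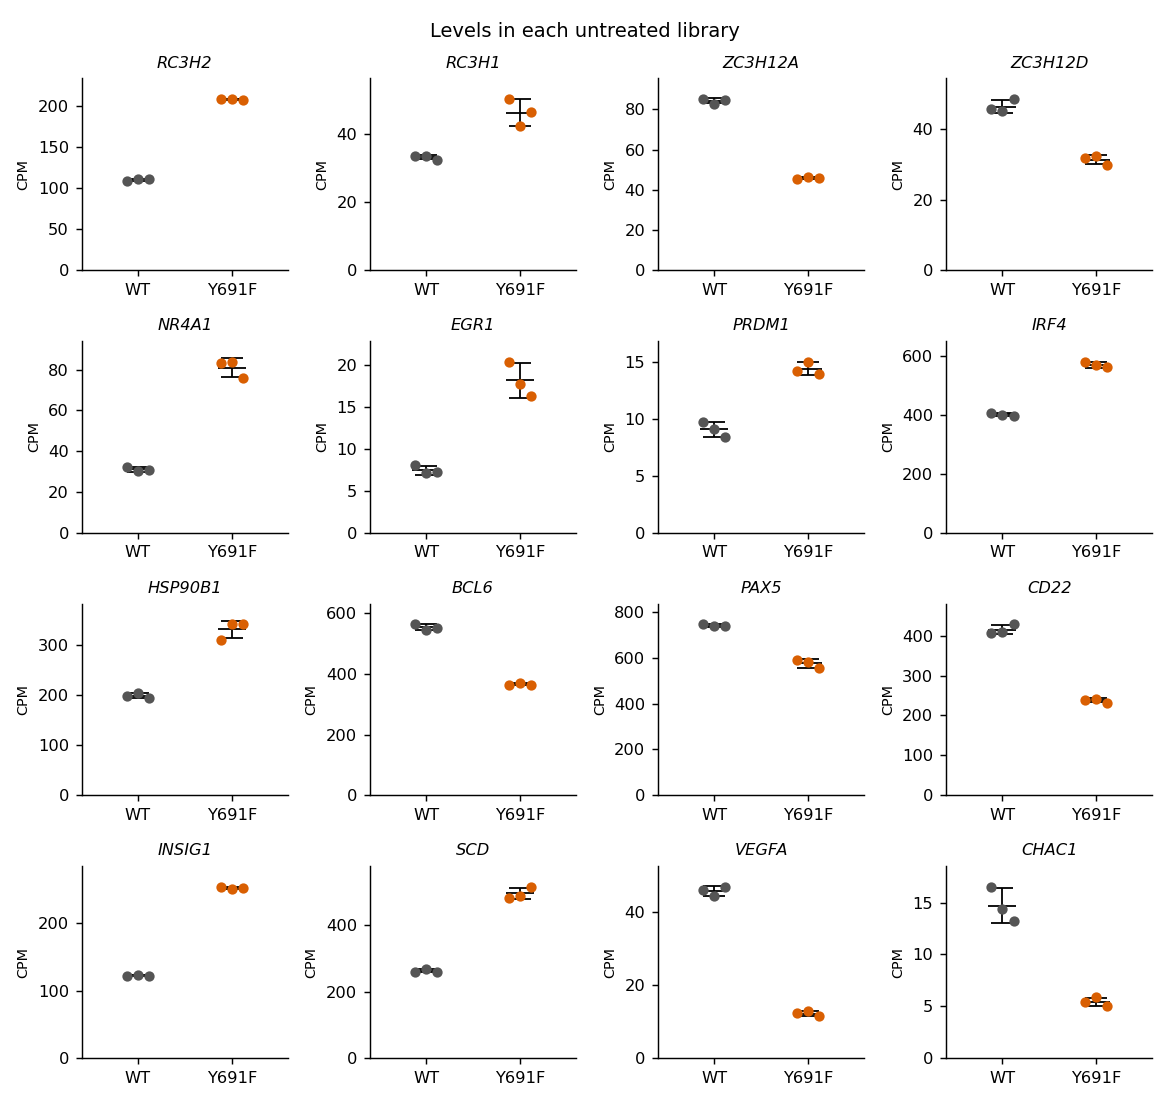
Each panel shows 1 gene in the 3 untreated WT libraries (grey) and the 3 untreated Y691F libraries (orange), in CPM on a linear axis from 0, with bars for the mean ± SD. In all 16 panels the libraries of one line lay above those of the other, upward in Y691F for RC3H2, RC3H1, NR4A1, EGR1, PRDM1, IRF4, HSP90B1, INSIG1 and SCD, and downward for the rest.

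Of 15 tested mRNAs reported as Roquin targets, 5 were higher and 4 lower, and the median was -0.0017. NFKBIZ (ENSG00000144802, chromosome 3, 101827991 to 101861022, plus strand) encodes an atypical IkB protein that acts with NF-kB in the nucleus, and had the largest called difference of the list. It stood at 108, 105 and 106 CPM in WT and 44.6, 48.5 and 47.4 CPM in Y691F (log2 -1.19, SE 0.041, adjusted p = 1.48e-41), so that every Y691F library held less than any WT library. NFKBID, of the same protein family, stood at 142, 135 and 135 CPM in WT and 211, 219 and 213 CPM in Y691F (log2 0.64, SE 0.032, adjusted p = 1.11e-30) and was higher. IRF4, a transcription factor gene needed for plasma cell formation, was higher too, at 406, 399 and 397 CPM in WT and 579.7, 566 and 559.9 CPM in Y691F (log2 0.51, SE 0.027, adjusted p = 1.33e-28). The cytokine genes TNF (log2 0.66) and LTA (0.33) and the NF-kB subunit gene REL (0.24) were the other higher members. The costimulatory receptor gene TNFRSF4, also called OX40 (-0.50), was lower, as were NFKBIZ and ZC3H12A. TNFAIP3, the gene of the NF-kB inhibitor A20, stood at 38.9, 40.9 and 36.1 CPM in WT and 40.6, 42.5 and 41.04 CPM in Y691F, and its lines overlapped (log2 0.093, adjusted p = 0.143). With IgM the same list counted 2 higher and 10 lower in Y691F, and the difference between the lines itself differed between untreated and IgM cells for 10 of the 15.

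Genes that carry the signal of the B cell receptor were split. Of 26 tested, 11 were higher and 10 lower, with a median of 0.025 that turned to -0.0020 without replicate 2 of untreated Y691F. The receptor subunit genes themselves differed little: CD79A was higher by 0.076 and CD79B lower (-0.21). The Ras activator gene RASGRP3 stood at 263, 268 and 265 CPM in WT and 157, 156 and 166 CPM in Y691F (log2 -0.73, SE 0.031, adjusted p = 3.11e-35). The catalytic PI3K subunit gene PIK3CD stood at 149, 147 and 148 CPM in WT and 111, 104 and 111 CPM in Y691F (log2 -0.44, SE 0.035, adjusted p = 3.00e-19), and the kinase gene PRKCB, which links the receptor to NF-kB, was lower as well (log2 -0.44, adjusted p = 2.34e-13). These 3 genes were lower in every Y691F library. The kinase gene BTK (0.30), the adaptor gene BLNK (0.29) and the phospholipase gene PLCG2 (0.25) were higher by smaller amounts.

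Brakes of the receptor counted 6 higher and 7 lower of 18 tested, and the falls held its most abundant members. CD22, an inhibitory lectin that recruits phosphatases to the receptor, stood at 408, 409 and 429 CPM in WT and 239, 242 and 232 CPM in Y691F (log2 -0.80, SE 0.03, adjusted p = 9.26e-40). PTPN6, the gene of the phosphatase SHP-1 that CD22 recruits, stood at 24.01, 26.4 and 27.1 CPM in WT and 14.6, 15.02 and 14.3 CPM in Y691F (log2 -0.82, SE 0.065, adjusted p = 7.55e-19). Neither gene overlapped between the lines. CSK, whose product switches off Src family kinases, was lower at 927 ± 25.4 CPM in the WT and 733 ± 26.4 CPM in the Y691F libraries (log2 -0.34, adjusted p = 2.01e-18). In the other direction, PTPN22, a phosphatase gene of lymphocytes, was higher at 18.98 ± 0.487 CPM in the WT and 28.02 ± 1.69 CPM in the Y691F libraries (log2 0.56, adjusted p = 2.92e-12). PTPN6 and CSK were not lower with IgM (log2 0.069 and 0.089), and for both the difference between the lines differed between untreated and IgM cells (adjusted p = 5.30e-16 and 8.42e-15).

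Immediate early genes, which cells transcribe within minutes of a receptor signal, were mostly higher in untreated Y691F: 15 higher and 3 lower of 27 tested, with a median of 0.42. The orphan nuclear receptor gene NR4A1 (ENSG00000123358, chromosome 12, 52022832 to 52059507, plus strand) stood at 32.4, 30.2 and 30.6 CPM in WT and 83.2, 83.99 and 75.8 CPM in Y691F (log2 1.38, SE 0.046, adjusted p = 1.46e-40). NR4A3 stood at 2.76, 2.98 and 3.15 CPM in WT and 13.8, 13.98 and 12.2 CPM in Y691F (log2 2.17, SE 0.11, adjusted p = 4.11e-28). The zinc finger factor gene EGR1 stood at 8.06, 7.08 and 7.17 CPM in WT and 20.4, 17.8 and 16.3 CPM in Y691F (log2 1.29, SE 0.08, adjusted p = 2.42e-24). In all 3 genes even the lowest Y691F library lay far above the highest WT library.

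The chemokine genes CCL3 and CCL4, which sit in a cluster of near-identical copies that can share reads, were near 1 CPM or below in WT and rose by 2.15 and 2.66. The AP-1 genes FOS (1.42, from 20 reads over the 3 WT libraries to 56 in Y691F) and FOSL2 (1.40) were higher, while JUN was not called (0.42, adjusted p = 0.103). The 3 lower members were ATF3 (-0.60), IER5 (-0.48) and KLF10 (-0.31). With IgM the list counted 7 higher and 16 lower, and the test of the difference between the 2 conditions called 17 of 27 members.

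Genes that restrain ERK signalling counted 4 higher and 2 lower of 16 tested. SPRED2, an inhibitor of Ras and Raf activation, stood at 42.9, 42.95 and 40.3 CPM in WT and 18.9, 18.1 and 19.6 CPM in Y691F (log2 -1.16, SE 0.058, adjusted p = 7.25e-31), the largest fall of its list. DUSP2 and DUSP5, phosphatases of MAP kinases, were higher at 55.4 ± 3.14 CPM in the WT and 86.2 ± 5.72 CPM in the Y691F libraries (log2 0.64, adjusted p = 1.95e-12) and 2.27 ± 0.0861 CPM in the WT and 5.26 ± 0.155 CPM in the Y691F libraries (log2 1.21, adjusted p = 1.30e-11). Of the calcium and calcineurin list, 6 and 4 of 20 tested were higher and lower. ORAI2, a subunit of the calcium channel that opens when stores are empty, stood at 98.7, 101 and 99.9 CPM in WT and 163, 162 and 156 CPM in Y691F (log2 0.68, SE 0.034, adjusted p = 1.06e-30), whereas the calcineurin subunit gene PPP3CA was lower (log2 -0.32, adjusted p = 3.15e-11). Among ion channels, the voltage-gated potassium channel gene KCNA3 rose without overlap from 8.43, 7.92 and 8.78 CPM to 22.2, 20.1 and 18.3 CPM (log2 1.28, SE 0.083, adjusted p = 1.15e-23), and the proton channel gene HVCN1 rose by 0.68.

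Most NF-kB subunit genes were not called. NFKB1 (log2 -0.016, adjusted p = 0.758), NFKB2 (0.0054, adjusted p = 0.933) and RELA (-0.036, adjusted p = 0.463) were not called, REL was higher and RELB lower (-0.15, adjusted p = 2.66e-04). The list of subunits, kinases and IkB proteins counted 6 higher and 3 lower of 16 tested. IKBKE, the gene of an IKK-related kinase, stood at 246, 242 and 241 CPM in WT and 176, 179 and 173 CPM in Y691F (log2 -0.46, SE 0.031, adjusted p = 3.37e-23), lower in all 3 Y691F libraries. The IkB-alpha gene NFKBIA was higher (0.28, adjusted p = 5.30e-05). Of the ubiquitin editors and adaptors around this pathway, 7 and 4 of 21 were higher and lower. TRAF2 stood at 118 ± 2.05 CPM in the WT and 89.8 ± 2.86 CPM in the Y691F libraries (log2 -0.39, adjusted p = 7.11e-15) and TRAF3 was lower too (-0.21), while BIRC3, which encodes a ubiquitin ligase of the TRAF2 complex, was higher (0.28, adjusted p = 6.97e-12).

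Of 27 tested TNF family ligands and receptors, 13 were higher and 4 lower, with a median of 0.14. TNFRSF1B, the gene of the second TNF receptor, stood at 10.1, 7.88 and 7.97 CPM in WT and 28.02, 30.9 and 29.1 CPM in Y691F (log2 1.76, SE 0.073, adjusted p = 4.26e-35), a 3.39-fold rise. CD27, a costimulatory receptor of memory B cells and plasma cells, stood at 115, 109.5 and 105 CPM in WT and 178, 175 and 174 CPM in Y691F (log2 0.68, SE 0.036, adjusted p = 3.60e-29). TNFRSF18, the gene of GITR, fell from 21.4, 21.3 and 20.8 CPM to 10.5, 10.1 and 9.52 CPM (log2 -1.07, SE 0.072, adjusted p = 6.00e-23). In each of these 3 genes the lines did not overlap. The ligand genes TNF (26.9 ± 1.495 CPM in the WT and 42.7 ± 1.91 CPM in the Y691F libraries, log2 0.66, adjusted p = 1.71e-18), LTA and LTB (0.29, adjusted p = 4.97e-08) were higher together. The count of lower members fell to 1 with the filter of 5 CPM and to 2 without replicate 1 of untreated WT.

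Factors of B cell identity were split. Among identity and germinal center factors, 7 were higher and 12 lower of 28 tested (median -0.063). BCL6 (ENSG00000113916, chromosome 3, 187721377 to 187745727, minus strand), the repressor that maintains the germinal center program, stood at 563, 543 and 551 CPM in WT and 362, 369 and 364 CPM in Y691F (log2 -0.60, SE 0.028, adjusted p = 2.29e-32). PAX5, which sets B cell identity, stood at 746, 738 and 737 CPM in WT and 589, 583 and 553 CPM in Y691F (log2 -0.36, SE 0.028, adjusted p = 4.60e-20), and POU2F2 (Oct-2) stood at 645, 622 and 620.1 CPM in WT and 458, 466 and 456 CPM in Y691F (log2 -0.45, SE 0.027, adjusted p = 1.21e-25). Each of these abundant factor mRNAs was lower in all 3 Y691F libraries. BCL11A (log2 -0.45) and SPI1 (-0.40) were also lower, while EBF1 (-0.12, adjusted p = 0.0759), BACH2 (0.097, adjusted p = 0.141) and TCF3 (0.017, adjusted p = 0.686) were not called. IKZF3 was among the higher members (0.17). U-2932 is known to hold subclones that part by BCL6, CD38 and CD20 (MS4A1) levels. BCL6 was lower, CD38 higher (131 ± 1.65 CPM in the WT and 182 ± 2.23 CPM in the Y691F libraries, log2 0.48, adjusted p = 1.07e-22) and MS4A1 lower by a small amount with overlapping libraries (869.6, 889.9 and 843 CPM in WT and 792, 773 and 854 CPM in Y691F, log2 -0.11, SE 0.029, adjusted p = 0.00241). Whether the lines hold different shares of such subclones was not tested.

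In the plasma cell list 19 of 21 tested genes were higher and 0 lower, with a median of 0.48. The remaining members, ZBTB20 (log2 0.21, adjusted p = 0.294) and TXNDC5 (-0.026, adjusted p = 0.856), were not called. PRDM1, the gene of the repressor Blimp-1 that closes the B cell program, stood at 9.75, 9.08 and 8.38 CPM in WT and 14.2, 15.02 and 13.9 CPM in Y691F (log2 0.66, SE 0.083, adjusted p = 1.49e-10). XBP1, the transcription factor of the secretory program, was higher by less, at 223 ± 4.65 CPM in the WT and 257 ± 10.4 CPM in the Y691F libraries (log2 0.21, adjusted p = 2.95e-08). The surface receptor gene SLAMF7 stood at 21.7, 20.2 and 20.9 CPM in WT and 46, 48.4 and 48.1 CPM in Y691F (log2 1.19, SE 0.051, adjusted p = 2.69e-35), and the chaperone-like gene MZB1 at 77.96, 77.6 and 74.2 CPM in WT and 129, 128 and 129 CPM in Y691F (log2 0.75, SE 0.036, adjusted p = 1.27e-31). CREB3L2, a membrane-bound transcription factor gene, and the kinase gene PIM2 rose by 0.85 and 0.70. The J chain gene JCHAIN, which links secreted IgM and IgA, stood at 131 ± 4.899 CPM in the WT and 204 ± 12.2 CPM in the Y691F libraries (log2 0.64, adjusted p = 2.54e-26). SDC1, the gene of the plasma cell surface marker CD138, stayed low, at 0.588 ± 0.232 CPM in the WT and 1.17 ± 0.433 CPM in the Y691F libraries (log2 1.02, adjusted p = 0.008295). PRDM1 stayed far below BCL6 and PAX5 in counts in both lines.

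Genes that move proteins into, fold them in and export them from the endoplasmic reticulum were higher in most cases, at 34 higher and 3 lower of 49 tested (median 0.19). HSP90B1, the gene of the chaperone GRP94, stood at 198, 204 and 195 CPM in WT and 311, 342 and 342 CPM in Y691F (log2 0.73, SE 0.032, adjusted p = 1.04e-32). HERPUD1, which takes part in the degradation of misfolded proteins, stood at 278, 279 and 269 CPM in WT and 368, 396 and 381 CPM in Y691F (log2 0.47, SE 0.03, adjusted p = 2.68e-24). The coat gene SEC24D (0.57), the translocon genes SEC61A1 (0.39), SEC61B (0.24) and SEC61G (0.33) and the associated SSR1 to SSR4 genes (from 0.30 to 0.42) were all higher. The 3 lower members were SYVN1 (-0.25), MANF (-0.12) and SAR1B (-0.12). The chaperone gene HSPA5, also called BiP, was at 509 ± 10.1 CPM in the WT and 524 ± 9.38 CPM in the Y691F libraries (log2 0.042, adjusted p = 0.3002).

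The promoter of HSP90B1 is shown because it holds the endoplasmic reticulum stress element, bound by ATF6 with NF-Y, in 2 copies. The element is CCAAT, then any 9 bases, then CCACG. This motif, searched on both strands in the 250 bases before the RefSeq start site, occurred in 6 of the 44 listed genes with a promoter entry (13.6%) and in 0.149% of all 9389 promoters of tested genes. It lay in 3 of the 30 higher members (CANX, ERO1B and HSP90B1). A match is a description of the letters and not evidence of binding. The 250 bases before the start of HSP90B1 (chr12:103930160-103930409, plus strand, GRCh38.p14) read as follows, 5′ to 3′, with the motif in capitals:
HSP90B1: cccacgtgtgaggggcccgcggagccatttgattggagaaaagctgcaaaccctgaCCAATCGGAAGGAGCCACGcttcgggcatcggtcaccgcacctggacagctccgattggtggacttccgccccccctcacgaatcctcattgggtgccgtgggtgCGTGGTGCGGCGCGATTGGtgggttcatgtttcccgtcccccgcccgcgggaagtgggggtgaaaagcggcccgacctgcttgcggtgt

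Immunoglobulin genes did not move as 1 group, with 6 and 4 of 14 tested genes higher and lower. IGHM, the heavy chain of the IgM receptor of these cells, was higher (9853 ± 346 CPM in the WT and 11150 ± 314 CPM in the Y691F libraries, log2 0.18, adjusted p = 1.45e-07), and the light chain gene IGKC stood at 2570, 2498 and 2475 CPM in WT and 3128, 3363 and 3245 CPM in Y691F (log2 0.37, SE 0.029, adjusted p = 1.29e-18). IGHD fell from 21.99, 21.9 and 21.9 CPM to 7.59, 8.18 and 7.75 CPM (log2 -1.49, SE 0.081, adjusted p = 1.91e-28), without overlap. VPREB3, an assembly factor of immunoglobulin chains, fell likewise (49.3 ± 3.13 CPM in the WT and 21.97 ± 0.766 CPM in the Y691F libraries, log2 -1.17, adjusted p = 4.74e-31). Constant region genes resemble each other and can share reads.

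Most MHC class II genes were higher. In the MHC class II list, 13 higher and 1 lower of 19 tested were counted, with a median of 0.26. HLA-DQA1 stood at 86.97, 86.6 and 82.8 CPM in WT and 136, 136 and 139 CPM in Y691F (log2 0.68, SE 0.034, adjusted p = 8.58e-31) and HLA-DRA at 244, 238 and 229.8 CPM in WT and 334, 349.5 and 345 CPM in Y691F (log2 0.53, SE 0.029, adjusted p = 7.33e-28). HLA-DMA, which loads peptides, stood at 64.9 ± 3.49 CPM in the WT and 90.9 ± 3.21 CPM in the Y691F libraries (log2 0.49, adjusted p = 8.42e-18), and CIITA, the master regulator of the class, was higher by 0.26 (adjusted p = 1.43e-04). The 3 Y691F libraries lay above the WT libraries for HLA-DQA1, HLA-DRA and HLA-DMA. The lower member was the protease gene CTSH (-0.28), a call that was lost without replicate 1 of untreated WT. With IgM the list went the other way, with 3 higher and 11 lower, and 15 of 19 members were called in the test between conditions. Class I genes counted 10 higher and 2 lower of 22 tested (median 0.077), B2M among the higher ones (0.20). Paralogous HLA genes can share reads.

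Interferon-responsive genes were mixed, at 13 higher and 6 lower of 31 tested. STAT2, a subunit of the interferon-activated factor ISGF3, stood at 48.2, 47.4 and 48.6 CPM in WT and 80, 78.03 and 79.9 CPM in Y691F (log2 0.72, SE 0.043, adjusted p = 3.53e-26), and the exonuclease gene ISG20 at 41.97, 41.2 and 40.6 CPM in WT and 76.4, 74.98 and 74.5 CPM in Y691F (log2 0.87, SE 0.044, adjusted p = 2.81e-30). IRF7 was higher from a low level (8.43 ± 1.31 CPM in the WT and 14.7 ± 0.539 CPM in the Y691F libraries, log2 0.82, adjusted p = 4.86e-13). IFITM2 (4.65 ± 0.2398 CPM in the WT and 1.44 ± 0.128 CPM in the Y691F libraries, log2 -1.68, adjusted p = 1.18e-13), IFITM1 (-1.61) and ISG15 (-0.57) were lower, so that members of 1 response stood on both sides. IFITM genes are close relatives that can share reads. Of the cytokine receptor list, 10 higher and 6 lower of 28 tested were counted. IL2RG, the common gamma chain, stood at 8.74, 9.75 and 8.66 CPM in WT and 20.4, 24.2 and 22.7 CPM in Y691F (log2 1.30, SE 0.077, adjusted p = 4.20e-26). STAT5B was lower (log2 -0.36, adjusted p = 3.40e-11).

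Receptors that place B cells in lymphoid tissue were higher in most cases, 9 higher and 3 lower of 13 tested, with a median of 0.69. Log2 differences of the tested members ran from -1.52 to 1.76, so S1PR2, described below, was not the largest fall. CXCR5, which draws B cells to follicles, stood at 596, 569 and 578 CPM in WT and 944, 978 and 906 CPM in Y691F (log2 0.70, SE 0.028, adjusted p = 3.37e-37), the most abundant member. GPR183 (EBI2), which leads B cells to the follicle edge, stood at 1.64, 1.07 and 1.78 CPM in WT and 4.28, 5.23 and 5.44 CPM in Y691F (log2 1.76, SE 0.17, adjusted p = 4.15e-15). S1PR2, which holds B cells in the germinal center, fell from 92.4, 95.5 and 91.7 CPM to 69.6, 67.8 and 68.1 CPM (log2 -0.45, SE 0.04, adjusted p = 2.75e-16). The lines were apart for each of the 3. CCR7 (1.97 ± 0.308 CPM in the WT and 3.57 ± 0.162 CPM in the Y691F libraries, log2 0.85, adjusted p = 2.33e-06) and S1PR1 (0.4202 ± 0.183 CPM in the WT and 1.34 ± 0.5596 CPM in the Y691F libraries, log2 1.67, adjusted p = 3.08e-05) were higher at low levels.

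Other surface genes differed singly. Among integrins and tetraspanins (7 higher and 8 lower of 20 tested) CD82 was lower (106 ± 2.19 CPM in the WT and 68.3 ± 4.13 CPM in the Y691F libraries, log2 -0.63, adjusted p = 3.00e-23) and the adhesion gene ICAM1 higher (103 ± 0.4 CPM in the WT and 131.7 ± 4.93 CPM in the Y691F libraries, log2 0.35, adjusted p = 1.37e-13). FCRL5, an Fc receptor-like gene, stood at 38.05, 37.7 and 38.4 CPM in WT and 69.2, 66.5 and 69.5 CPM in Y691F (log2 0.85, SE 0.046, adjusted p = 1.64e-28). CD83 was higher (117 ± 4.26 CPM in the WT and 170.2 ± 4.95 CPM in the Y691F libraries, log2 0.54, adjusted p = 6.47e-25), as was the checkpoint gene TIGIT (0.83). The ligand gene ICOSLG was lower, at 1.43 ± 0.303 CPM in the WT and 0.211 ± 0.151 CPM in the Y691F libraries (log2 -2.71, adjusted p = 1.43e-09), and CD80, a ligand of CD28, was lower as well (-0.56, adjusted p = 1.91e-08).

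Most lipid synthesis genes tested rose. In the cholesterol list 22 of 30 tested genes were higher and 2 lower, with a median of 0.34. INSIG1 (ENSG00000186480, chromosome 7, 155297776 to 155310235, plus strand), a sterol-regulated gene whose product retains the SREBP activator in the endoplasmic reticulum, stood at 122, 124 and 122 CPM in WT and 254, 251 and 252 CPM in Y691F (log2 1.04, SE 0.031, adjusted p = 6.18e-46). HMGCS1, an early enzyme of the pathway, stood at 53.6, 55.3 and 54.5 CPM in WT and 93.9, 97.6 and 101 CPM in Y691F (log2 0.84, SE 0.039, adjusted p = 1.83e-32). All Y691F libraries lay above all WT libraries in both genes. The lower members were SCAP (-0.12), the SREBP escort, and NR1H2 (-0.11), a sterol-sensing nuclear receptor.

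Fatty acid synthesis and desaturation counted 16 higher and 2 lower of 26 tested (median 0.22). The desaturase genes SCD (261, 269.9 and 260.4 CPM in WT and 483, 490.0 and 517 CPM in Y691F, log2 0.91, SE 0.029, adjusted p = 4.73e-44) and FADS2 (183, 182 and 185 CPM in WT and 349, 349.8 and 344 CPM in Y691F, log2 0.92, SE 0.029, adjusted p = 4.58e-44) were the most changed of its abundant genes. FADS1, next to FADS2 on chromosome 11, was higher by 0.64, the transcription factor gene SREBF1 by 0.51 and the synthase gene FASN by 0.46. The second stearoyl desaturase gene, SCD5, was lower (-0.34). With IgM the cholesterol list counted 24 higher and 3 lower and the fatty acid list 16 higher and 1 lower.

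The promoter of INSIG1 is shown as an example of the CCAAT box, the NF-Y site that often stands beside sterol elements. CCAAT on either strand occurred in 16 of the 24 tested cholesterol genes with a promoter entry (66.7%) and in 35.7% of all 9389 promoters. By call, it occurred in 13 of the 16 higher genes (81.2%) and in 0 of the 2 lower ones, too few for a comparison. The sterol element TCACNCCAC occurred in 1 of 24 tested members with an entry, SREBF2, and in 0.841% of all promoters. The INSIG1 promoter (chr7:155297628-155297877, plus strand, GRCh38.p14) carries the box on the other strand, as ATTGG, in capitals:
INSIG1: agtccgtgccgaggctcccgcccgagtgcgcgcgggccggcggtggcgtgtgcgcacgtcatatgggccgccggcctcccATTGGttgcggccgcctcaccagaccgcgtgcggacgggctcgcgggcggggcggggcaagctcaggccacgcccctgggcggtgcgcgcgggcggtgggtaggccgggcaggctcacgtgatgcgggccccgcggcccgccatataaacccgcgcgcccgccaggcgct

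Most tested genes of glucose use and of the response to low oxygen fell. In the glycolysis list 0 were higher and 22 lower of 28 tested (median -0.25). ALDOC, an aldolase gene, stood at 37.6, 36.8 and 40.2 CPM in WT and 18.6, 22.3 and 19.4 CPM in Y691F (log2 -0.93, SE 0.061, adjusted p = 2.69e-23). PFKFB4 and PFKFB3, whose products set the level of the activator of phosphofructokinase, fell by 1.23 and 0.58 on the log2 scale, PFKFB4 from 15.1, 16.9 and 18.99 CPM to 7.41, 8.29 and 5.99 CPM. LDHA, the lactate dehydrogenase subunit gene, stood at 951, 992 and 983 CPM in WT and 755, 769.7 and 808 CPM in Y691F (log2 -0.33, SE 0.028, adjusted p = 1.27e-17). Among abundant enzymes, PKM (-0.23), ENO1 (-0.20) and ALDOA (-0.28) were lower by less. FBP1, which encodes the gluconeogenic enzyme that opposes phosphofructokinase, went the other way. It stood at 39.3, 40.6 and 39.8 CPM in WT and 86.3, 91.5 and 80.5 CPM in Y691F (log2 1.11, SE 0.044, adjusted p = 1.82e-37), without overlap.

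Hypoxia-responsive genes outside glycolysis counted 1 higher and 15 lower of 23 tested, with the lowest median of any list of more than 20 tested genes (-0.38). VEGFA, the gene of the angiogenic growth factor, stood at 45.95, 44.2 and 46.8 CPM in WT and 12.2, 12.8 and 11.3 CPM in Y691F (log2 -1.91, SE 0.06, adjusted p = 1.64e-44), a level in WT of more than 3 times that in Y691F. BNIP3, a mitophagy receptor gene, stood at 30.9, 29.1 and 32.8 CPM in WT and 16.8, 17.9 and 17.8 CPM in Y691F (log2 -0.82, SE 0.064, adjusted p = 1.69e-19), and AK4, a mitochondrial adenylate kinase gene, at 84.1, 87.1 and 83.5 CPM in WT and 53.3, 54.4 and 52.8 CPM in Y691F (log2 -0.67, SE 0.041, adjusted p = 4.83e-25). The demethylase gene KDM3A was lower by a similar amount (-0.61). In all 4 the 3 Y691F libraries were the lowest. HIF1A itself was not called (62.7 ± 3.38 CPM in the WT and 58.8 ± 1.27 CPM in the Y691F libraries, log2 -0.095, adjusted p = 0.08999). The 1 higher member, NDRG1, had 1 read in the WT libraries together and 11 in the Y691F libraries, a ratio of Y691F over WT of 10.6 with a 95% interval of 1.54 to 457 for counting error. Its call was lost with the DESeq2 Wald test, with the filter of 5 CPM, with only the 6 untreated libraries, and without replicate 2 or 3 of untreated WT. Nuclear genes of oxidative phosphorylation counted 2 higher and 14 lower of 39 tested, with ATP5B at -0.21 and a median of -0.07. The 13 mitochondrially encoded mRNAs had a median of 0.019, and 11 were not called.

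The core letters of the hypoxia response element, ACGTG, were searched on both strands in the same 250 bases. They occurred in 9 of the 11 lower members of the hypoxia list with a promoter entry (81.8%), in 13 of all 18 with an entry (72.2%), in 8 of 21 lower glycolysis genes (38.1%) and in 24.1% of all promoters. The E-box CACGTG contains the same letters, so the search does not part these motifs. The promoters of AK4 (chr1:65147302-65147551, plus strand), BNIP3 (chr10:131981924-131982173, minus strand) and ALDOC (chr17:28576896-28577145, minus strand; all GRCh38.p14) are shown because these genes had among the smallest adjusted p of their lists and hold the letters, here in capitals:
AK4: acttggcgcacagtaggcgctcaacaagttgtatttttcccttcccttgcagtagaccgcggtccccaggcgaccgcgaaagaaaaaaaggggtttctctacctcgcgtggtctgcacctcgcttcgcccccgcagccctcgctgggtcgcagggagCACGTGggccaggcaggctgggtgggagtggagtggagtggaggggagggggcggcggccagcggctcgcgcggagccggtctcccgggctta
BNIP3: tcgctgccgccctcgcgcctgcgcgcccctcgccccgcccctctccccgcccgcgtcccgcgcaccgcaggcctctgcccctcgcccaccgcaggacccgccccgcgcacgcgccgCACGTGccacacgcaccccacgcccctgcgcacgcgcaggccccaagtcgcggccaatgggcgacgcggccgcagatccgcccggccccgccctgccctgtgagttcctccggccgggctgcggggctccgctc
ALDOC: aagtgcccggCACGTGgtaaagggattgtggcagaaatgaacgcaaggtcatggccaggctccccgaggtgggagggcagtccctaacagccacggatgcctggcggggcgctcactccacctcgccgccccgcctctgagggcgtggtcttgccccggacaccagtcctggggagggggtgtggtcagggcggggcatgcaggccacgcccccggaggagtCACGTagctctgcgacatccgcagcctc

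Genes of the integrated stress response, which ATF4 induces when amino acids or protein folding fail, were lower in most cases: 4 higher and 26 lower of 33 tested (median -0.22). CHAC1, which encodes a glutathione-degrading enzyme, stood at 16.5, 14.4 and 13.2 CPM in WT and 5.38, 5.85 and 5.04 CPM in Y691F (log2 -1.44, SE 0.10, adjusted p = 5.47e-21). SESN2, a stress-induced inhibitor of mTORC1 signalling, stood at 50.7, 47.6 and 48.7 CPM in WT and 28.9, 31.8 and 27.9 CPM in Y691F (log2 -0.73, SE 0.052, adjusted p = 1.22e-21). DDIT3, the gene of the factor CHOP, was lower at 16.9 ± 0.5998 CPM in the WT and 8.63 ± 0.668 CPM in the Y691F libraries (log2 -0.97, adjusted p = 5.06e-18), and the serine synthesis gene PHGDH at 258 ± 7.16 CPM in the WT and 199 ± 5.803 CPM in the Y691F libraries (log2 -0.38, adjusted p = 1.14e-17). CHAC1, SESN2, DDIT3 and PHGDH each had all Y691F libraries below all WT libraries. The higher members were SLC7A11 (0.45), SLC7A1 (0.29), PSAT1 (0.26) and WARS (0.20). ATF4 was at 387 ± 7.72 CPM in the WT and 356 ± 12.7 CPM in the Y691F libraries (log2 -0.12, adjusted p = 3.76e-04). CHAC1 is 1 of 2 listed genes, with ASNS, whose promoter window holds TGATGNAA, the core of the C/EBP-ATF element, which 1.35% of all promoters hold. In the CHAC1 window (chr15:40953221-40953470, plus strand, GRCh38.p14) it lies on the other strand, as the capitals show:
CHAC1: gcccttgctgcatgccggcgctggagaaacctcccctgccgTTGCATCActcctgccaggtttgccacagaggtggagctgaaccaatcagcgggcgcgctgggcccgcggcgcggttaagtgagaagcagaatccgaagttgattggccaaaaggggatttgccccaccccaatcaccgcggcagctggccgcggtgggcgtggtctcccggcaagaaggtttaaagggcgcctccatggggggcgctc

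Of the heat shock genes, 0 and 16 of 25 tested were higher and lower, with a median of -0.15. HSPA1B stood at 374, 355 and 361 CPM in WT and 269.5, 272 and 257 CPM in Y691F (log2 -0.45, SE 0.031, adjusted p = 2.46e-21) and its near-identical neighbour HSPA1A, with which it can share reads, at 58.7 ± 2.51 CPM in the WT and 41 ± 1.301 CPM in the Y691F libraries (log2 -0.51, adjusted p = 5.28e-16). The constitutive chaperone gene HSPA8 was not called (-0.013, adjusted p = 0.774), and HSP90AB1 was lower by a small amount (-0.10, adjusted p = 0.001704).

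Among growth and division genes, most of the calls made were in the lower direction, and many members were not called. G1/S and replication genes counted 1 higher and 21 lower of 49 tested (median -0.072), with the cyclin gene CCND3 at 95.8 ± 4.89 CPM in the WT and 73.5 ± 3.36 CPM in the Y691F libraries (log2 -0.38, adjusted p = 5.58e-13), the clamp loader gene RFC4 at -0.28 and E2F1 at -0.23. G2/M genes counted 5 higher and 14 lower of 37 tested (median -0.043), BUB1B being lower (-0.27) and CDC25B higher (0.17). The lower count of the G2/M list was 7 without replicate 1 of untreated Y691F and 8 without replicate 2 of untreated WT. Ribosome biogenesis genes counted 1 higher and 22 lower of 42 tested (median -0.089), a lower count of 14 without replicate 1 of untreated Y691F. FBL, the methyltransferase of ribosomal RNA, stood at 288, 284 and 289 CPM in WT and 240.3, 247 and 243 CPM in Y691F (log2 -0.24, SE 0.029, adjusted p = 1.47e-10). Cytosolic ribosomal protein genes counted 2 higher and 10 lower of 35 tested (median -0.05).

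In the BCL2 family, 6 higher and 4 lower of 16 tested, the antiapoptotic genes BCL2 (697, 696 and 691.3 CPM in WT and 880.2, 909 and 879.9 CPM in Y691F, log2 0.36, SE 0.027, adjusted p = 6.72e-20) and BCL2A1 (58.4 ± 1.93 CPM in the WT and 83.5 ± 2.86 CPM in the Y691F libraries, log2 0.51, adjusted p = 3.28e-19) were higher. So was BCL2L11, the gene of the proapoptotic BIM (91.1 ± 1.64 CPM in the WT and 119 ± 4.98 CPM in the Y691F libraries, log2 0.38, adjusted p = 2.98e-15). MCL1 was not called (-0.00068, adjusted p = 0.9895). Factors of mRNA decay counted 3 higher and 8 lower of 37 tested. Among them ZFP36L2 (168 ± 5.19 CPM in the WT and 211 ± 12.04 CPM in the Y691F libraries, log2 0.33, adjusted p = 2.44e-14) and ZFP36L1 (0.35), which bind AU-rich elements, were higher, and the decapping activator gene PATL1 was lower (-0.29). Of the adaptors of CUL3 ubiquitin ligases, 3 and 4 of 22 were higher and lower, led by KLHL6 (542, 550.2 and 526 CPM in WT and 393, 384 and 401 CPM in Y691F, log2 -0.46, SE 0.028, adjusted p = 3.02e-25), which is mainly expressed in lymphoid cells. CUL3 was not called (-0.093, adjusted p = 0.0984).

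**Figure D3:**
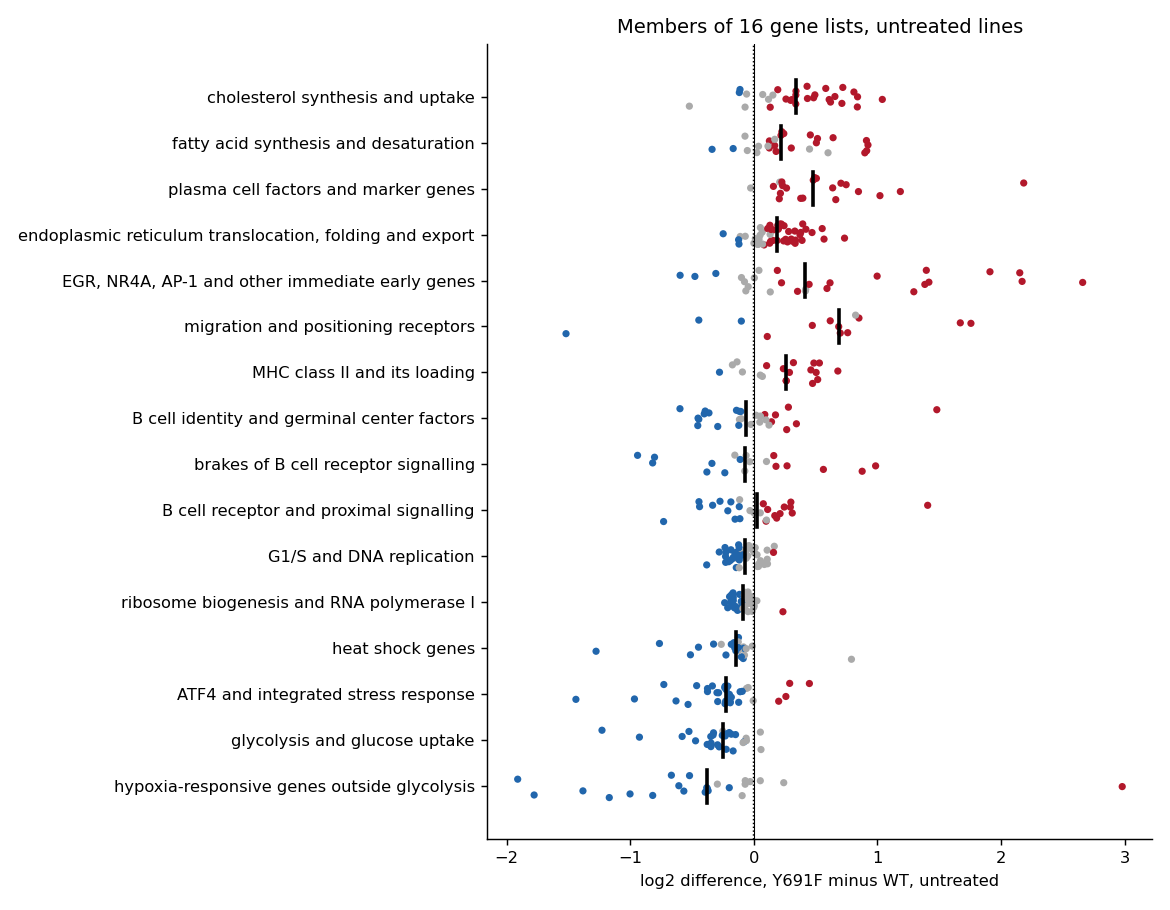
Each point is a tested member of 1 of 16 gene lists, placed by its log2 difference, Y691F minus WT, in untreated cells (horizontal axis), with red for genes called higher, blue for genes called lower and grey for the rest. Black bars are the medians, which run from -0.38 in the hypoxia list to 0.69 in the list of migration receptors, and the dotted line is the median of all 15112 genes.

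Several of the largest falls in untreated Y691F were of genes that stayed detected in Y691F at a small part of their WT level. ZNF385C (ENSG00000187595, chromosome 17, 42025576 to 42065365, minus strand), a zinc finger gene, stood at 29.5, 32.8 and 26.8 CPM in WT and 1.43, 1.14 and 1.11 CPM in Y691F (log2 -4.59, SE 0.12, adjusted p = 5.51e-47). GNAZ (ENSG00000128266, chromosome 22, 23070361 to 23125037, plus strand), a G protein alpha subunit gene, stood at 40.1, 39.2 and 39.8 CPM in WT and 2.898, 2.69 and 2.97 CPM in Y691F (log2 -3.79, SE 0.094, adjusted p = 9.52e-52). These and the other genes of largest difference named, rises and abundant genes included, were taken from those whose libraries did not overlap, so that their separation was fixed by the choice.

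The axonemal dynein gene DNAH2 had 187 reads over the WT libraries and 3 over the Y691F libraries, a ratio of 64.6 with a 95% interval of 21.8 to 316 that covers counting error only. PLD4 (30.6 ± 0.928 CPM in the WT and 4.32 ± 0.167 CPM in the Y691F libraries), an exonuclease gene, the troponin gene TNNI1 (41.3 ± 1.18 CPM in the WT and 5.99 ± 0.236 CPM in the Y691F libraries) and OLFML2A (44.9 ± 0.266 CPM in the WT and 7.53 ± 0.153 CPM in the Y691F libraries) fell by 2.82, 2.79 and 2.58 on the log2 scale. POU3F1 (log2 -3.12), SHISA9 (-2.62), the Nogo receptor gene RTN4R (-2.60), LBH (-2.39) and the receptor kinase gene ERBB4 (-2.35) were also among the 12 largest falls at a mean of at least 1 CPM. Their WT levels were below 7 CPM.

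The 12 largest rises started from lower levels, with every WT library below 2 CPM. After NXN, C14orf132, PRKD1 and HSPG2 came CCL4 and DACT1, an antagonist of Wnt signalling, at 0.689, 0.712 and 0.746 CPM in WT and 4.09, 4.56 and 4.33 CPM in Y691F (log2 2.58, SE 0.20, adjusted p = 7.17e-20). The RNA-binding splicing factor gene CELF2 stood at 0.901, 0.935 and 0.803 CPM in WT and 4.78, 4.45 and 5.69 CPM in Y691F (log2 2.48, SE 0.19, adjusted p = 3.27e-20), and the synuclein-interacting gene SNCAIP at 1.22, 1.16 and 1.95 CPM in WT and 7.499, 7.82 and 7.402 CPM in Y691F (log2 2.42, SE 0.16, adjusted p = 2.70e-23). KCNA2 (2.56), RIC3 (2.43), ZNF614 (2.26) and SNX20 (2.22), a sorting nexin gene of leukocytes, complete the set. Of the axon guidance and matrix list, 13 higher and 6 lower of 30 tested were counted, ROBO1 rising from 3.65 ± 0.182 to 15.01 ± 0.548 CPM (log2 2.03, adjusted p = 3.06e-30). With the filter of 5 CPM that list had 7 higher members. In the TGF-beta list (10 higher and 6 lower of 30 tested), whose higher count was 6 without replicate 1 of untreated Y691F, the corepressor gene TGIF1 was higher (10.2 ± 0.683 CPM in the WT and 18.6 ± 1.22 CPM in the Y691F libraries, log2 0.88, adjusted p = 6.29e-17).

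Among genes with a mean of at least 50 CPM, the fall of greatest statistical weight was that of PVRL1 (ENSG00000110400, chromosome 11, 119623408 to 119729084, minus strand), the gene of the adhesion molecule nectin-1. It stood at 1353, 1297 and 1291 CPM in WT and 551, 564 and 518 CPM in Y691F (log2 -1.27, SE 0.028, adjusted p = 5.37e-55), so that 1 of the more abundant mRNAs of WT cells was far lower in every Y691F library. BASP1, a membrane-associated signalling protein gene, stood at 73.2, 77.6 and 74.3 CPM in WT and 26.96, 29.5 and 27.9 CPM in Y691F (log2 -1.42, SE 0.046, adjusted p = 2.56e-43), and NLRP7, of the NOD-like receptor family, at 184, 179 and 177 CPM in WT and 71.9, 72.9 and 72.8 CPM in Y691F (log2 -1.31, SE 0.037, adjusted p = 1.09e-47). SERPINA9, a germinal center B cell gene also called centerin, stood at 162, 144 and 145 CPM in WT and 69.8, 67.9 and 71.9 CPM in Y691F (log2 -1.10, SE 0.052, adjusted p = 1.95e-16). The tubulin genes TUBB2A (-0.997) and TUBB2B (-1.01), near-identical neighbours on chromosome 6 that can share reads, fell by similar amounts. SNX22 (-1.25), NXPH4 (-1.07) and the AMP deaminase gene AMPD2 (-0.91) were the other abundant falls.

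The abundant rises were led by CABLES1 (ENSG00000134508, chromosome 18, 23134564 to 23260467, plus strand), whose product links cyclin-dependent kinases to the kinase ABL. Its level was 45.2 ± 1.05 CPM in the WT and 123 ± 6.27 CPM in the Y691F libraries (log2 1.45, adjusted p = 1.09e-47), higher in all 3 Y691F libraries. KIF26B, a kinesin family gene, stood at 56.4, 52.2 and 57.3 CPM in WT and 121, 121 and 114 CPM in Y691F (log2 1.11, SE 0.04, adjusted p = 2.66e-40), and SH2D3C, an adaptor gene that binds CAS family proteins, at 77.01, 70.5 and 70.4 CPM in WT and 133, 137 and 129.5 CPM in Y691F (log2 0.87, SE 0.038, adjusted p = 2.24e-34). NR4A1, FBP1, INSIG1, FADS2, RC3H2, SCD and ISG20, described above, complete the 10.

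By kind of transcript, 17.2% of 11670 protein-coding genes were higher and 19.4% lower. Among 578 long intergenic noncoding RNAs 14% were higher and 4.67% lower, and among 719 antisense transcripts 11.5% and 4.45%. No chromosome had a median far from 0: the medians ran from -0.022 on chromosome 17 to 0.044 on chromosome 21. Of windows of 40 neighbouring tested genes, the highest median, 0.29, lay on chromosome 6 from 26216975 to 28093664 (GRCh38), a stretch of histone genes with 14 members called higher and 3 lower. A window on the same chromosome from 32459821 to 33457541, which holds MHC class II genes, had a median of 0.21. The lowest, -0.12, lay on chromosome 22 from 22369614 to 25231869, where GNAZ, VPREB3 and the immunoglobulin genes IGLC2, IGLC3 and IGLC7 lie.

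The same lines were compared after IgM in 6 other libraries, so the 2 comparisons share no library. There 6362 genes were called (42.1%), with 3305 higher (21.9%) and 3057 lower (20.2%). Of the 2279 genes higher in untreated Y691F, 1305 (57.3%) were higher with IgM too and 202 (8.86%) were lower. These 1305 are 39.5% of the genes higher with IgM. Of the 2437 lower genes, 1097 (45%) were lower with IgM and 336 (13.8%) higher, the 1097 being 35.9% of the genes lower with IgM. Of the 287 genes at least 2-fold higher, 177 were higher with IgM and 15 lower, and of the 129 at least 2-fold lower, 63 were lower and 4 higher.

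A test of the difference between the 2 comparisons called 3883 genes (25.7%), 945 of them among those higher and 1066 among those lower in untreated Y691F. TNNI1 (log2 -2.79 untreated, -2.78 with IgM), SHISA9 (-2.62 and -2.31) and DACT1 (2.58 and 2.97) were not called in that test. GNAZ was lower in Y691F than in WT by less with IgM (-2.52, interaction adjusted p = 0.00437). SNX22, -1.25 untreated, stood at -0.033 with IgM (interaction adjusted p = 2.46e-15), and CABLES1 was higher by less (0.41, interaction adjusted p = 2.15e-30). In the plasma cell list IRF4 (with IgM -0.0025, adjusted p = 0.953) and PIM2 (-0.058, adjusted p = 0.243) were not called with IgM. MZB1 was higher in Y691F than in WT by more with IgM (1.16). In the B cell identity list 22 of 28 members were called in the test, BCL6 among them.

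**Figure D4:**
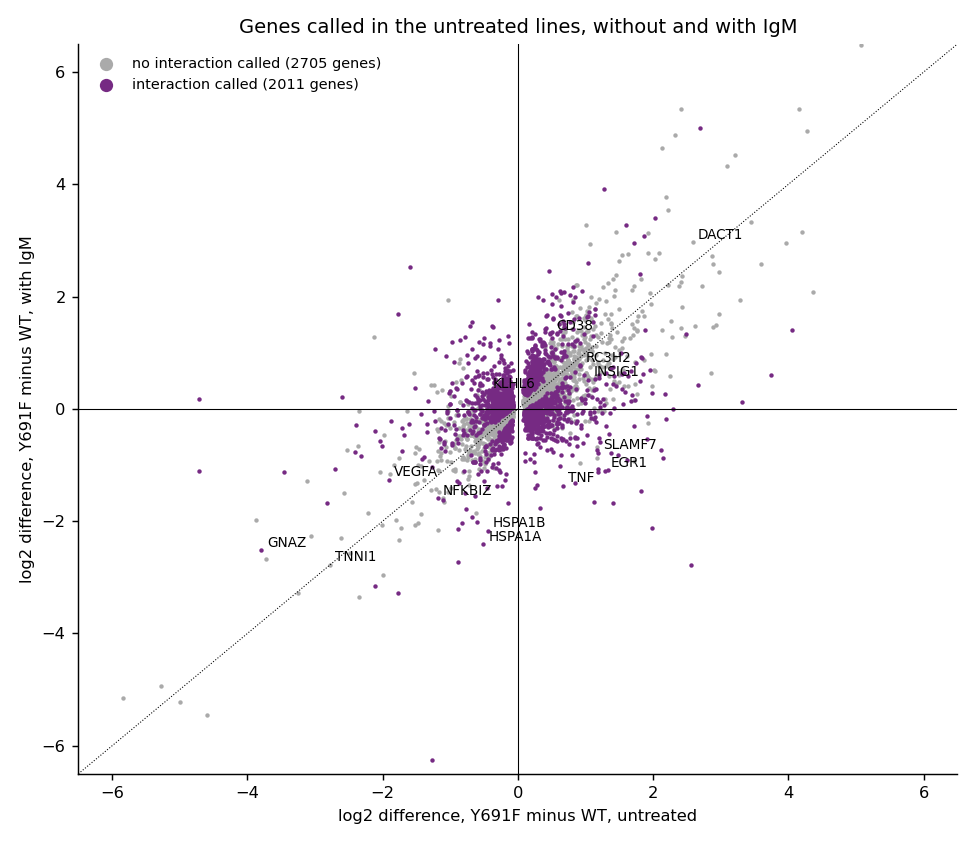
Each point is 1 of the 4716 genes called in untreated cells, placed by its log2 difference, Y691F minus WT, in untreated cells (horizontal axis) and with IgM (vertical axis), each from 6 libraries of its own; 2 genes lie beyond the axes. Purple points are the 2011 genes whose differences were called as unequal, the dotted line marks equal differences, and TNNI1 and DACT1 lie near it while EGR1, TNF and SLAMF7 lie below the horizontal line.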

How the data were processed

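Per the labels' protocols, polyA+ RNA of the 12 libraries was sequenced with dUTP strand marking. The submitters' processing notes name STAR 2.5.0b, DESeq2 and GRCh38; the counter and annotation were not given in the sources used here. Here the authors deposited whole-number read counts and RPKM values for each gene; the RPKM values deposited by the authors served only to compare RC3H1 with RC3H2. All 12 libraries were fitted together by group (edgeR 4.0.16, R 4.3.3, TMM scaling, filterByExpr, robust quasi-likelihood test), because the groups then share 1 estimate of the spread, and p-values are 2-sided and Benjamini-Hochberg adjusted over 15112 genes. The SE is the size of the log2 difference over the square root of F. On simulated data of this design the test recovered 50 of 50 genes changed 4-fold.

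The comparison, the 47 gene lists and the tests were chosen with earlier results of these data known, and no list is independent evidence. Named genes were RC3H2, RC3H1, TNFAIP3, KLHL6; among called genes with separated libraries and a proper symbol, the 12 largest rises and falls with a mean of at least 1 CPM and the 10 largest of each with at least 50 CPM; and up to 4 members of each list by adjusted p. Other list members were named for their role or to give the members of a small count, after their values were seen. For the test between conditions, 5 named genes in each direction were taken by p. Of 1222 list entries, 5 were matched by an older symbol. Promoters are from RefSeq (GRCh38.p14; 9389 tested genes matched). Replicates of a group differed by 1.46 to 2.41 times counting error (chi-square over degrees of freedom), so none was counted as a repeat of another. This spread cannot tell separate cultures from separate library preparations of 1 culture, since both can exceed counting error. The adjusted p-values measure differences against the spread between replicates within a line, and not against the spread between independently made lines. Replicate numbers were not used to pair libraries. Alternatives were DESeq2 1.42.0 size factors and Wald test, library totals, limma 3.58.1 (voom), 2 filters, the 6 untreated libraries alone, a replicate block, a 1.5-fold null and leaving out each library. Some genes that these rules or lists hold are not reported here.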

Additional observations from a re-analysis of the deposited data

Results flagged for a closer look

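For 10 named genes the Y691F difference itself differed between untreated and IgM cells in the interaction test over all 12 libraries. Values below are the untreated difference minus the IgM difference on the log2 scale.

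In 5 genes the untreated difference was the higher. SLAMF7 was higher in Y691F than in WT in untreated cells (1.19) and lower than in WT with IgM (-0.79). The interaction was 1.97 (SE 0.057, adjusted p = 1.85e-46). Its mean level was higher with IgM in both lines, at 20.9 CPM untreated and 1019 CPM with IgM in WT, and 47.5 and 591 CPM in Y691F. The difference between the lines likewise was 1.29 untreated and -1.10 with IgM for EGR1 (2.39, SE 0.085, adjusted p = 4.27e-39). For TNF it was 0.66 and -1.36 (2.03, SE 0.076, adjusted p = 1.28e-38). The heat shock genes HSPA1B (1.73, SE 0.045, adjusted p = 1.13e-46) and HSPA1A (1.90, SE 0.071, adjusted p = 6.45e-39) were lower in Y691F in both conditions and by more with IgM (-2.18 and -2.42). HSPA1A and HSPA1B can share reads.

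In the other 5 the untreated difference was the lower. KLHL6 (-0.76, SE 0.04, adjusted p = 1.11e-28), BCL6 (-0.82, SE 0.044, adjusted p = 3.67e-28) and IKBKE (-0.78, SE 0.058, adjusted p = 5.57e-20) were lower in untreated Y691F and higher with IgM (0.30, 0.22 and 0.31). TUBB2A (-1.09, SE 0.067, adjusted p = 6.27e-25) was lower untreated and not called with IgM (0.092, adjusted p = 0.181). CD38 (-0.87, SE 0.055, adjusted p = 2.64e-24) was higher in both and by more with IgM (1.35).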

How the results depend on the processing

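Tested against a 1.5-fold null with glmTreat, 228 genes were higher and 131 lower in untreated Y691F. With a filter of 5 CPM in 3 libraries, 98 genes were at least 2-fold higher and 50 lower. Without 1 library in turn, 1962 to 2132 genes were higher, 2032 to 2320 lower, 277 to 299 at least 2-fold higher, 132 to 154 at least 2-fold lower, and 3384 to 3828 called in the test between conditions. The DESeq2 Wald test called 1695 higher and 1944 lower, and library totals gave 2587 and 2045. Over the scaling, test, filter, block and leave-one-out alternatives, 77.1% to 99.5% of the 4716 calls were shared. The median of the receptor signalling list ran from -0.0020 (without replicate 2 of untreated Y691F) to 0.036 without 1 library, and that of the Kelch list 0.0072 with the filter of 5 CPM; the cause was not tested. Among the genes recomputed, 2910 values kept direction and side of the threshold, 14 lost a call (LY9, SLAMF6, CD8A, MT-ND2 and MT-ND3) and 7 gained one (MT-ATP6, MT-CO3 and DCN).

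Same-numbered untreated libraries of the 2 lines did not deviate together (correlations -0.0092 to 0.030, against -0.039 to 0.039 for other numbers), so the numbers were not read as a pairing. With a replicate block, 2284 genes were higher, 2453 lower and 3898 called between conditions. On simulated data the test recovered 29 of 50 genes at the smallest fold simulated. It recovered 40 of 50 changed 1.5-fold and 41 of 50 changed 2-fold, with 5 false calls among 14912 unchanged genes. The simulation gave all genes the same biological spread, unlike the data, and recovery by read count is not given here.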
